A study of Homo sapiens with 9 samples.

Results

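The genes described here are 10 parts of the Notch signalling pathway: the receptors NOTCH1, NOTCH2 and NOTCH3, the ligands JAG1, JAG2 and DLL1, the receptor-modifying enzyme LFNG, and the target genes HES1, HEY1 and NRARP. They were chosen by name as core pathway genes, and their rows were found by mapping Ensembl identifiers to symbols. The choice was made with earlier results of these data known. Counts of members set against all tested genes are therefore descriptions. They are 10 of the 78894 identifiers measured. All 10 passed the filter on low values, and they are 10 of the 17100 genes tested.

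Notch receptors are single-pass membrane proteins that are activated by ligands on a neighbouring cell. Binding is followed by cleavage by an ADAM protease and then by gamma-secretase, which frees the intracellular domain to enter the nucleus, bind the DNA-binding protein RBPJ and switch on genes of the HES and HEY families. In stratified squamous epithelium, Notch signalling is known for promoting the exit of basal cells into differentiation, and NOTCH1 is often inactivated by mutation in head and neck squamous cell carcinoma.

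The RNA came from CAL27 cells, an established tongue squamous carcinoma line grown in DMEM with serum and given no treatment. The groups were Control, with 3 libraries, and 3 CRISPR knockouts named A2ko, A8ko and C9ko in the labels, with 2 files each. The labels do not name the edited sequence, so no target could be checked, and they do not say whether a knockout is 1 clone or a pool or whether the libraries came from separate cultures. P-values therefore measure the spread between these libraries, which may be technical. The files of the A2ko pair held identical values, as did those of the A8ko pair, and each pair was counted as 1 library. Distinct libraries therefore numbered 7, with 3 in Control, 2 in C9ko and 1 each in A2ko and A8ko. Values for A2ko and A8ko have no replicate check and carry no test.

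Levels are in TPM, transcript abundance scaled to a common total and corrected for gene length, so levels of different genes can be set side by side. Sequencing depth is unknown. Between 15556 and 16716 identifiers reached 1 TPM in a library. All 10 squamous epithelial markers examined were at 1 TPM or more in every library, with a summed level of 15548 to 16726 TPM in the Controls, 6854 in A2ko, 8354 in A8ko, 10745 in C9ko replicate 1 and 11005 in C9ko replicate 2. The sum follows KRT5 and KRT14, at 8917 and 3877 TPM in the Control mean, and the list did not move as a set: in C9ko KRT8 was at 2.28, KRT18 at 2.44 and CDH1 at 1.67 times the Control mean. Of the markers of other cell types, PTPRC of leukocytes was at most 0.0232 TPM, and COL3A1 of fibroblasts and KDR of endothelium were listed at 0 in every library. CDH5, CD14, CD68, COL1A1 and COL1A2 were above 1 TPM in every library. The 5 endothelial markers summed to 3.51 to 4.55 TPM in Control and 8.63 to 30.1 TPM in the knockouts, nearly all from CDH5. The 6 leukocyte markers summed to 42.3 to 50.4 and 59.4 to 82.8 TPM, and the 6 fibroblast markers to 10.8 to 12.2 and 7.36 to 17.7 TPM. The part of these marker levels in the results below was not tested. Differences from Control are in units of log2(TPM + 1). Over all tested genes the medians of A2ko, A8ko and C9ko were 0.12, 0.09 and 0.11, so a difference of about this size is shared by genes in general.

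In Control, NRARP was the most abundant of the 10 genes, at 118 ± 10.0 TPM (SD, n = 3), above 93.3% of the tested genes. JAG1 followed with 78.8 ± 5.14 TPM. NOTCH3 at 60.1 ± 4.31, HES1 at 58.4 ± 2.76 and JAG2 at 56.8 ± 3.51 TPM came next, and the ranges of neighbours in this order overlapped. LFNG, at 37.9 ± 3.24 TPM, and NOTCH1, at 37.7 ± 3.13, overlapped as well. Below these were DLL1 at 28.1 ± 2.96 TPM, NOTCH2 at 16.1 ± 0.587 and HEY1 at 1.38 ± 0.570 (all SD, n = 3), with no overlap between one and the next. HEY1 was the one member near the limit of 1 TPM used to filter genes.

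**Figure D1:**
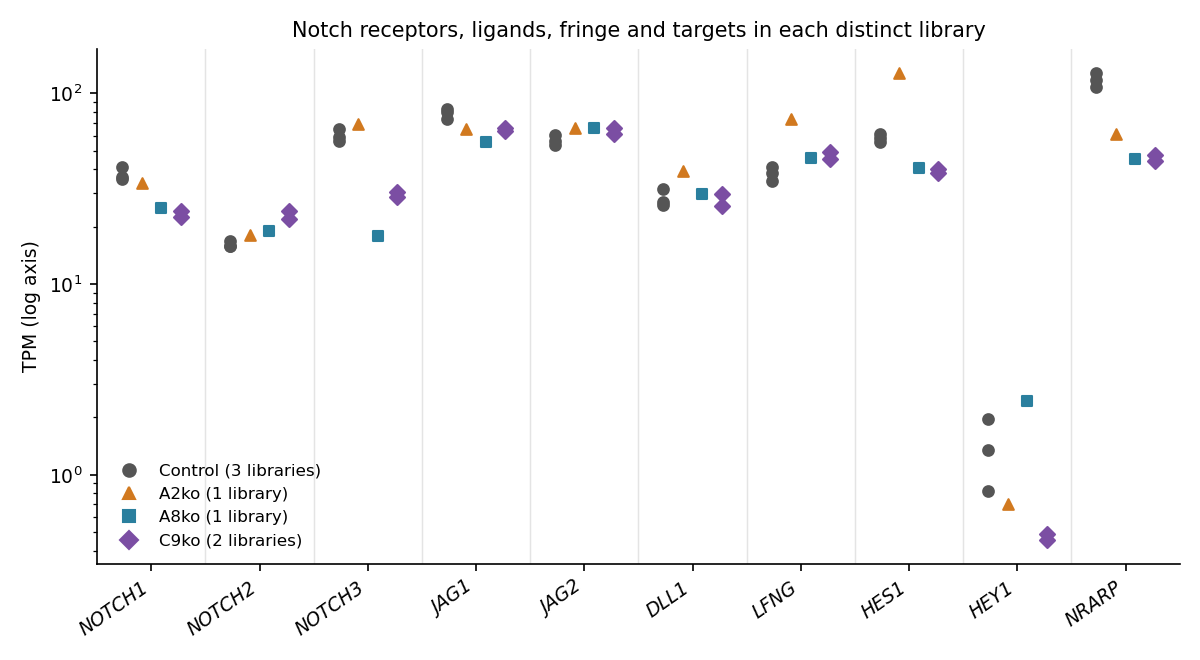
Level of each of the 10 genes in the 7 distinct libraries, in TPM on a log axis, with 1 symbol per library. NRARP is lower in all 4 knockout libraries than in Control, whereas HES1 is above Control in A2ko and below it in A8ko and C9ko.

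C9ko was compared with Control by limma, and a gene was called at an adjusted p-value under 0.05. Of the 10 members 7 were called, 2 higher and 5 lower. The background is large in this comparison: 29.5% of all tested genes were called, 22.0% higher and 7.42% lower. NRARP, NOTCH3, NOTCH1 and HES1 fell and NOTCH2 rose, and these 5 calls held in each of the 13 alternative analyses. The differences of JAG1 and LFNG were smaller, and their calls did not hold in all of them. At an unadjusted p under 0.05, 8 members passed, against 41.6% of all tested genes. Over all genes, 74.8% of the calls were higher, and 54.6% after median-of-ratios scaling. The count over all genes was 3301 in place of 5038 without C9ko replicate 2, and that of the members was then 5.

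With 3 Control libraries, lying outside their range is common, so the positions given below are to be read against all tested genes. A2ko lay beyond every Control library for 6 members above and 4 below, against 50.4% and 26.3% of tested genes, 76.7% in all. A8ko did so for 4 above and 5 below, against 46.9% and 26.4%, 73.3% in all. Both C9ko libraries did so for 3 above and 6 below, against 41.1% and 16.4%, 57.5% in all. Outside the range by at least 1 log2 unit were 1 member above in A2ko (3.54% of tested genes above, 1.53% below) and 2 members below in A8ko (2.05% above, 2.68% below).

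Among the receptors, NOTCH3 showed the widest difference. NOTCH3 (ENSG00000074181, chromosome 19, 15159038 to 15200981, minus strand, protein coding) was at 56.4, 59.0 and 64.8 TPM in the Controls, 68.8 in A2ko, 17.9 in A8ko, 28.7 in C9ko replicate 1 and 30.3 in C9ko replicate 2. A8ko and C9ko lay far below Control, and A2ko lay just above it. NOTCH3 fell by 0.9998 in C9ko, in log2 units (limma, SE 0.08 and adjusted p 0.000206), with 2 of 2 libraries below every Control library. In A8ko the difference was -1.69, past the 1 log2 unit used to mark genes there, as were 4.73% of all tested genes. In A2ko it was 0.19, and after median-of-ratios scaling it was 0.07 and within the Control range. In these bulk samples, fewer cells that express a gene and less RNA per cell cannot be told apart.

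NOTCH1, the receptor best known for its role in squamous cells (ENSG00000148400, chromosome 9, 136494433 to 136545786, minus strand, protein coding), was at 35.5, 36.3 and 41.3 TPM in Control. It was at 33.8 TPM in A2ko, 25.1 in A8ko, 24.1 in C9ko replicate 1 and 22.5 in C9ko replicate 2, so that every knockout library lay below every Control library. NOTCH1 fell by 0.67 in C9ko, in log2 units (limma, SE 0.09 and adjusted p 0.00164). The difference was -0.56 in A8ko and -0.15 in A2ko. An antisense transcript annotated across NOTCH1 was at no more than 0.306 TPM in any library.

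NOTCH2 went the other way. NOTCH2 (ENSG00000134250, chromosome 1, 119911553 to 120069626, minus strand, protein coding) was at 15.8, 16.8 and 15.8 TPM in the Controls, 18.2 in A2ko, 19.0 in A8ko, 21.9 in C9ko replicate 1 and 24.0 in C9ko replicate 2. All knockout libraries were above all Control libraries, and after median-of-ratios scaling A2ko was within the Control range. NOTCH2 rose by 0.49 in C9ko, in log2 units (limma, SE 0.07 and adjusted p 0.00362). The near-identical partial copies NOTCH2NLA, NOTCH2NLB, NOTCH2NLC and NOTCH2NLR can share reads with NOTCH2, so its level is uncertain. Together they were at 6.12 to 6.50 TPM in Control and 5.62 to 7.75 in the knockout libraries. With the copies added, the summed level was 22.1 to 22.9 TPM in the Controls, 23.8 in A2ko, 25.6 in A8ko, 29.7 in C9ko replicate 1 and 30.6 in C9ko replicate 2, which keeps the same order of groups.

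The mix of receptors differed between the groups. The sum of NOTCH1, NOTCH2 and NOTCH3 was 114 ± 7.28 TPM over the Controls (SD, n = 3), 121 in A2ko, 62.1 in A8ko, 74.8 in C9ko replicate 1 and 76.8 in C9ko replicate 2. NOTCH3 made up 52.7 ± 0.409% of this sum over the Controls (SD, n = 3), 57.0% in A2ko, 28.9% in A8ko, 38.4% in C9ko replicate 1 and 39.4% in C9ko replicate 2. NOTCH2 made up 14.2 ± 1.09% over the Controls (SD, n = 3), 15.0% in A2ko, 30.6% in A8ko, 29.3% in C9ko replicate 1 and 31.3% in C9ko replicate 2. The share of NOTCH1 was 32.4% to 33.9% in Control, 28.0% in A2ko, 40.5% in A8ko, 32.2% in C9ko replicate 1 and 29.3% in C9ko replicate 2. In A8ko and C9ko the receptor pool was thus smaller and its NOTCH2 share about 30%, whereas A2ko kept a Control-like sum. These shares are descriptions and were not tested.

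**Figure D2:**
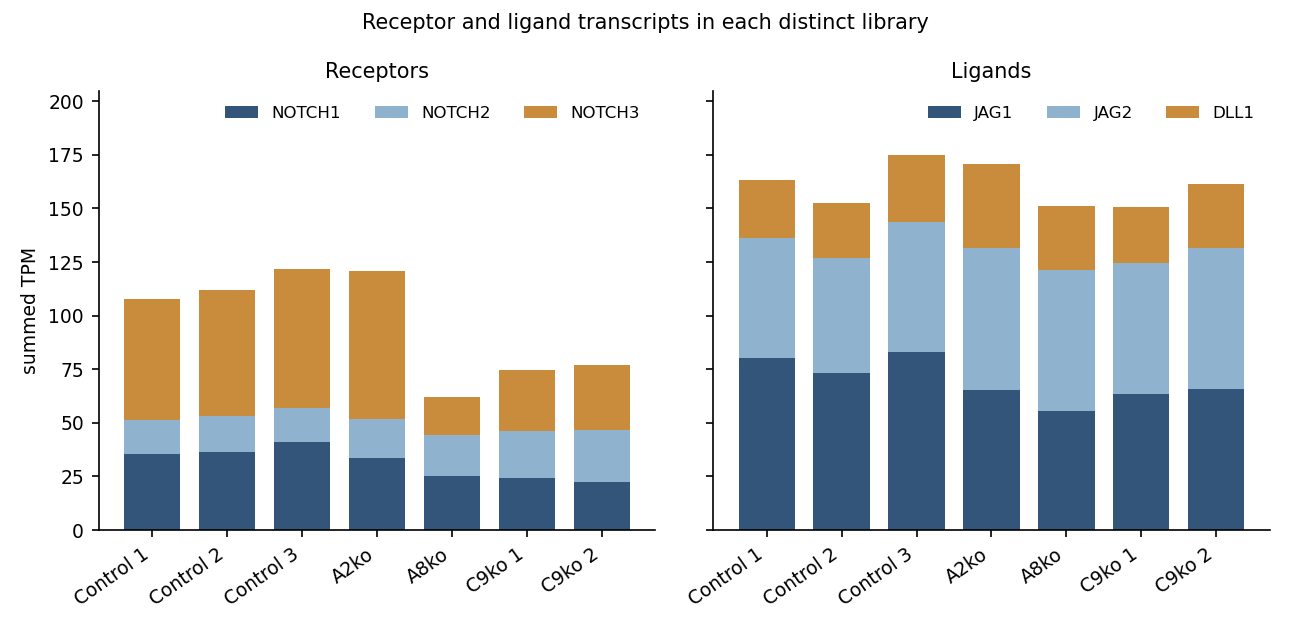
Summed TPM of the 3 receptors (left) and the 3 ligands (right) in each distinct library, stacked by gene. The receptor sum is 62.1 to 76.8 TPM in A8ko and C9ko against 107.6 to 121.9 in Control, while the ligand sum ranges from 150.6 to 175.1 TPM over all libraries.

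Among the ligands, JAG1 was lower than Control in each knockout, and JAG2 and DLL1 were not called in C9ko. JAG1, the more abundant Jagged ligand in Control (ENSG00000101384, chromosome 20, 10637684 to 10673999, minus strand, protein coding), was at 80.2, 73.1 and 83.0 TPM in the Controls, 65.2 in A2ko, 55.7 in A8ko, 63.5 in C9ko replicate 1 and 66.0 in C9ko replicate 2. Every knockout library lay below every Control library. JAG1 fell by 0.28 in C9ko, in log2 units (limma, SE 0.07 and adjusted p 0.0314). The call was lost in 7 of the 13 alternatives, among them leaving out Control replicate 1 (adjusted p 0.0807), Control replicate 3 (0.0894), C9ko replicate 1 (0.134) or C9ko replicate 2 (0.0869). The differences in A8ko and A2ko were -0.49 and -0.27.

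JAG2, the second Jagged ligand (ENSG00000184916, chromosome 14, 105140981 to 105168824, minus strand, protein coding), was at 56.1, 53.7 and 60.6 TPM in the Controls, 66.2 in A2ko, 65.6 in A8ko, 61.2 in C9ko replicate 1 and 65.7 in C9ko replicate 2. The knockout libraries were above all Control libraries, but the difference of 0.16 in C9ko did not pass (SE 0.07, limma adjusted p 0.159) and was 0.03 after median-of-ratios scaling. DLL1, a Delta-like ligand (ENSG00000198719, chromosome 6, 170282206 to 170306565, minus strand, protein coding), was at 26.9, 25.8 and 31.4 TPM in the Controls, 39.2 in A2ko, 29.7 in A8ko, 25.8 in C9ko replicate 1 and 29.7 in C9ko replicate 2. A8ko and C9ko overlapped Control, and A2ko lay above it by 0.47. The A8ko difference of 0.08 turned to -0.02 after median-of-ratios scaling. For C9ko the difference was -0.01 (SE 0.11, limma adjusted p 0.933). DLL1 overlaps FAM120B on the opposite strand, which reached at most 14.1 TPM, and the sources used here do not state the strand setting of the counting.

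The summed level of the 3 ligands was 164 ± 11.2 TPM over the Controls (SD, n = 3), 171 in A2ko, 151 in A8ko, 151 in C9ko replicate 1 and 161 in C9ko replicate 2. A2ko and C9ko replicate 2 were within the Control range, and the other libraries were just below it. The ratio of JAG1 to JAG2 was 1.36 to 1.43 in Control and lower in every knockout library, at 0.985 in A2ko, 0.848 in A8ko, 1.04 in C9ko replicate 1 and 1.005 in C9ko replicate 2. Ligand transcripts exceeded receptor transcripts in all libraries, by a ratio of 1.36 to 1.52 in Control, 1.41 in A2ko, 2.43 in A8ko, 2.01 in C9ko replicate 1 and 2.10 in C9ko replicate 2.

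LFNG encodes lunatic fringe, a Golgi enzyme that extends O-fucose on the receptors and alters which ligands activate them (ENSG00000106003, chromosome 7, 2512529 to 2529177, plus strand, protein coding). It was at 41.0, 34.6 and 38.0 TPM in the Controls, 73.0 in A2ko, 46.1 in A8ko, 45.3 in C9ko replicate 1 and 49.2 in C9ko replicate 2. All knockout libraries were above all Control libraries, A2ko at 1.93 times the Control mean, a log2 difference of 0.93 and so just short of 1. LFNG rose by 0.31 in C9ko, in log2 units (limma, SE 0.09 and adjusted p 0.0372). That call was lost in 8 of the 13 alternatives, which include median-of-ratios scaling (0.18, adjusted p 0.0853) and leaving out Control replicate 2 (adjusted p 0.0800), Control replicate 3 (0.0900), C9ko replicate 1 (0.0665) or C9ko replicate 2 (0.176). In proportion to the receptor sum, LFNG was at 0.308 to 0.381 in Control, 0.604 in A2ko, 0.742 in A8ko, 0.605 in C9ko replicate 1 and 0.641 in C9ko replicate 2.

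The target genes did not move together. NRARP, a small ankyrin-repeat protein that is induced by Notch and dampens it (ENSG00000198435, chromosome 9, 137300482 to 137302251, minus strand, protein coding), was at 117, 108 and 128 TPM in Control. It was at 61.3 TPM in A2ko, 45.4 in A8ko, 44.4 in C9ko replicate 1 and 47.6 in C9ko replicate 2. Every knockout library was far below every Control library. NRARP fell by 1.34 in C9ko, in log2 units (limma, SE 0.09 and adjusted p 9.95e-05), to 0.390 of the Control mean. The level was 0.385 of the Control mean in A8ko, a log2 difference of -1.36, and 0.520 in A2ko, a difference of -0.93.

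HES1, the classic Notch target and a transcriptional repressor (ENSG00000114315, chromosome 3, 194136145 to 194138732, plus strand, protein coding), was at 61.0, 55.5 and 58.6 TPM in the Controls, 128 in A2ko, 40.4 in A8ko, 38.2 in C9ko replicate 1 and 40.0 in C9ko replicate 2. A2ko was at 2.20 times the Control mean, and A8ko and C9ko were below all Control libraries. HES1 fell by 0.57 in C9ko, in log2 units (limma, SE 0.07 and adjusted p 0.00120). In A8ko the difference was -0.52. In A2ko it was 1.13, beyond the Control range and past 1 log2 unit, as in 5.07% of tested genes. HES1 was the one member past that mark in A2ko, and after median-of-ratios scaling it was at 0.997, just short of it, while NRARP was at -1.06.

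HEY1, a related repressor on chromosome 8 (ENSG00000164683, protein coding), was at 0.820, 1.35 and 1.96 TPM in the Controls, 0.702 in A2ko, 2.43 in A8ko, 0.454 in C9ko replicate 1 and 0.486 in C9ko replicate 2. The Control values spread more than 2-fold, and both C9ko libraries were below them. The difference of -0.67 in C9ko did not pass (SE 0.22, limma adjusted p 0.0654). It passed without Control replicate 1. In A8ko the difference was 0.56, opposite in sign to that of NRARP and HES1.

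**Figure D3:**
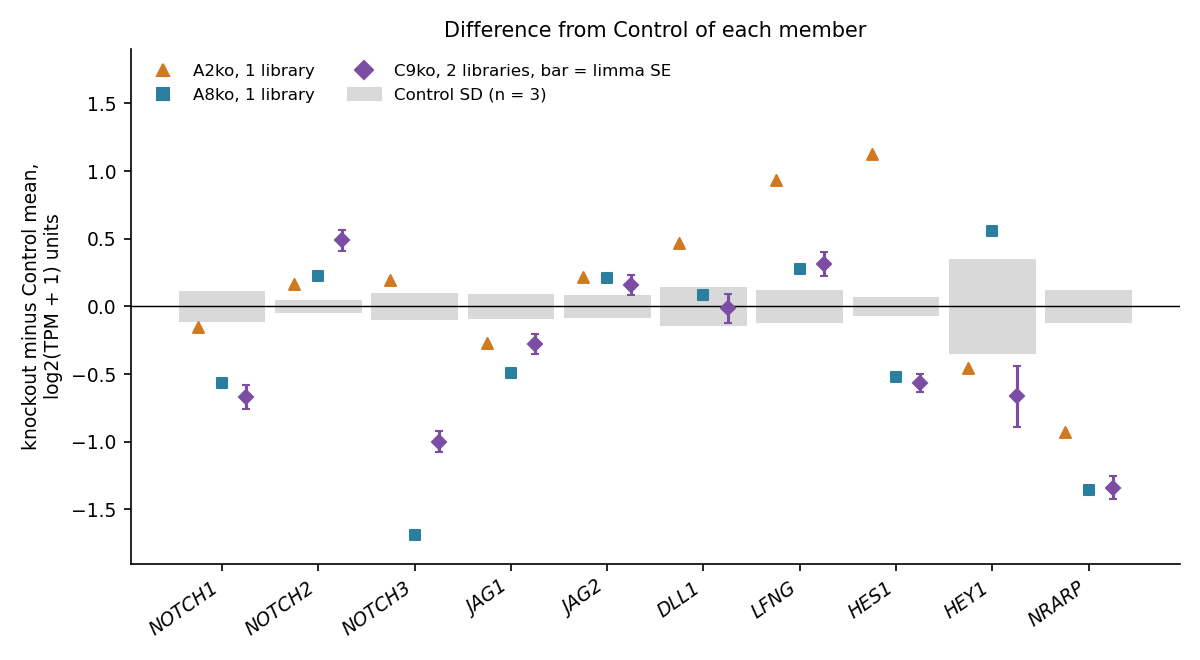
Difference from the Control mean of each gene in log2(TPM + 1) units; triangles are the A2ko library, squares the A8ko library, diamonds the C9ko mean with the limma SE, and grey boxes 1 SD of the 3 Control libraries on either side. NRARP is below Control by 0.93 to 1.36 in all knockouts, and HES1 is above it by 1.13 in A2ko.

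HES1 and NRARP parted most widely in A2ko. HES1 to NRARP was 0.496 ± 0.0345 over the Controls (SD, n = 3), 2.09 in A2ko, 0.890 in A8ko, 0.862 in C9ko replicate 1 and 0.840 in C9ko replicate 2. The ratio was above the Control range in every knockout library. It is a description of single libraries for A2ko and A8ko and was not tested.

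Promoter sequences are shown for HES1, for NRARP, which parted from it in A2ko, and for HES4, a further HES gene described below. They are RefSeq windows on GRCh38.p14, each of 300 bases from 250 before to 50 after the annotated start, read 5′ to 3′ on the gene's strand. Capitals mark TGGGAA, the core of the sequence bound by RBPJ, and CACNAG, the N box bound by HES proteins, searched on both strands.
HES1 (chr3:194135898-194136197, plus strand): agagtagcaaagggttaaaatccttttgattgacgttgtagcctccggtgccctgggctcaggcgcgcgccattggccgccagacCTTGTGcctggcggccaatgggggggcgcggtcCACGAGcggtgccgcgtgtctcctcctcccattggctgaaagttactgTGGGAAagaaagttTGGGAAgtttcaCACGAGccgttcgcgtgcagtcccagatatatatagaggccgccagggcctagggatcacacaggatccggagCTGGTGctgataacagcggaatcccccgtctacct
HES4 (chr1:1000048-1000347, minus strand): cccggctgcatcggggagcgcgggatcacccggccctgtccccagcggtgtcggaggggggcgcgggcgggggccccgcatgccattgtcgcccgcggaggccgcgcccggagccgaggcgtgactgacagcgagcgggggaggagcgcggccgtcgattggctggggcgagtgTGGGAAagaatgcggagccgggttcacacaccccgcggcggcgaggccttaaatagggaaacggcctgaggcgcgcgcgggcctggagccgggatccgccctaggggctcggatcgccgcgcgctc
NRARP (chr9:137302222-137302521, minus strand): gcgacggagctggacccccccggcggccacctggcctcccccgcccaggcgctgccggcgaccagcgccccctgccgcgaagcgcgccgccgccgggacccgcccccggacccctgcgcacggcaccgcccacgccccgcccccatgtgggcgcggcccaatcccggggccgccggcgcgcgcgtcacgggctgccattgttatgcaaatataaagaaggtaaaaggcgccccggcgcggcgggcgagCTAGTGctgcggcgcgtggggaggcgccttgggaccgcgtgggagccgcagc
The 7-letter form GTGGGAA, which holds TGGGAA within it, occurred once in the HES1 window, beginning 85 bases before the start, and once in the HES4 window, beginning 77 bases before it. HES1 held TGGGAA at 2 positions, 84 and 70 bases before the start, and CACNAG at 4. The NRARP window held neither GTGGGAA nor TGGGAA, and 1 CACNAG. Among the other HES and HEY genes, whose windows are not shown, HES2, HES6 and HES7 also held neither GTGGGAA nor TGGGAA. HES5, HEY2 and HEYL held GTGGGAA, and HES3 held TGGGAA without it. Of 35116 windows of this length, 6.25% held GTGGGAA, 24.0% TGGGAA and 38.0% CACNAG. Among the 8 members with a window in the table, HES1 was the one with GTGGGAA, and LFNG was the other with TGGGAA. DLL1 and HEY1 were not matched. A match is a description of letters and not a measured site, and an absence covers these 300 bases alone. HES4, which held GTGGGAA, had a difference of 0.09 in A2ko. A link between these letters and the differences from Control was not tested.

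To ask what the knockouts share, each knockout group was reduced to 1 value, and limma set the 3 values against the 3 Control libraries. Of the 10 members 1 was called, against 1.03% of all tested genes, 0.509% higher and 0.52% lower, and 5 members passed an unadjusted p under 0.05, against 16.0%. Of the calls over all genes 49.4% were higher, and 30.0% after median-of-ratios scaling. NRARP fell by 1.21 on the log2 scale (limma, SE 0.14 and adjusted p 0.0210), with 4 of 4 knockout libraries below every Control library. The call did not hold without Control replicate 1 (adjusted p 0.162), Control replicate 2 (0.142), Control replicate 3 (0.161) or the C9ko group (0.0644), or with no filter on low values (0.0904), while the difference stayed between -1.35 and -1.13 in all 11 alternatives. JAG1 had a difference of -0.35 (adjusted p 0.184), NOTCH1 of -0.46 (0.221), NOTCH2 of 0.29 (0.292) and LFNG of 0.51 (0.256). For NOTCH3, at -0.83 (adjusted p 0.392), and HES1, at 0.01 (0.990), the spread between knockouts was wide, with an SE of 0.42 and 0.43.

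Without the A2ko group, this comparison called 4 members, NOTCH1, NOTCH3, HES1 and NRARP, all lower, while over all genes it called 1993 of 17100 in place of 176. HES1 then had a difference of -0.54 (adjusted p 0.0101) and NOTCH3 of -1.34 (0.0103). By a count free of a test, 6 of the 10 members had every knockout library on 1 side of every Control library, NOTCH2, JAG2 and LFNG above and NOTCH1, JAG1 and NRARP below. Over all tested genes the share was 21.6%, 17.0% above and 4.61% below. After median-of-ratios scaling it was 4 members, LFNG above and NOTCH1, JAG1 and NRARP below. The share over all tested genes after this scaling is not given here, so the 4 members have no background.

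Chromosome 3 had a median difference of 0.36 in C9ko, so each member was set beside the tested genes within 2 Mb of it. NOTCH1 had 79 such neighbours with a median difference of 0.14 in C9ko, and NRARP had 78, also with 0.14, in windows that overlap on chromosome 9. A share of 1.28% of the neighbours of NRARP and 3.80% of those of NOTCH1 had a lower difference than the gene itself. NOTCH3 was below all 64 of its neighbours, whose median was 0.12. HES1, below all but 7.41% of 27 neighbours, lay on chromosome 3, with a median of 0.12 in its own window.

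JAG1 lay beside a raised stretch of chromosome 20. Within 2 Mb it had 9 tested neighbours with a median of 0.15 in C9ko, and within 5 Mb 24 neighbours with a median of 0.54, of which 12 were called higher and 0 lower. JAG1 itself was at -0.28. In A2ko, HES1, LFNG and DLL1 were above all their neighbours within 2 Mb, whose medians were 0.29, 0.28 and 0.13. In A8ko, NOTCH3 was below all its neighbours, with a median of 0.15.

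**Figure D4:**
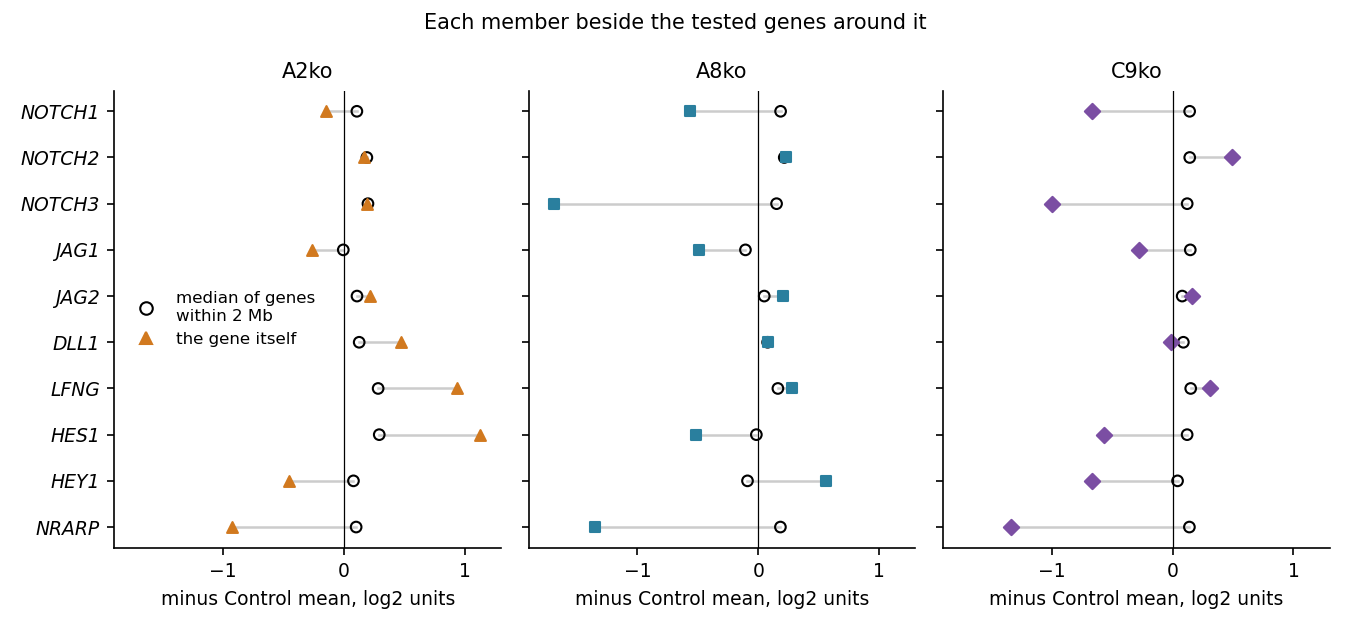
Each gene's difference from Control (filled symbols) beside the median of the tested genes within 2 Mb (open circles), in log2(TPM + 1) units, for A2ko, A8ko and C9ko. The neighbours' medians stay between -0.11 and 0.29, while NRARP and NOTCH3 reach -1.36 and -1.69 in A8ko.

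A list of 57 other pathway genes was examined, and 45 of them were tested. In C9ko 19 of the 45 were called, 14 higher and 5 lower, with a median difference of 0.14 against 0.11 for all tested genes and a background of 29.5% called. After median-of-ratios scaling 18 were called, 10 higher and 8 lower, against 2626 higher and 2187 lower of all 17100 genes. Without C9ko replicate 2 fewer of the 45 and fewer of all tested genes were called, so the count depends on that library. In all knockouts together limma called 0 of the 45, with 12 at an unadjusted p under 0.05, against 1.03% and 16.0% of all tested genes. In the fit of all 4 groups 19 of the 45 were called, against 4361 of all 17100 genes. In A2ko 0 of the 45 were outside the Control range by at least 1 log2 unit, and in A8ko 3 were, 1 higher and 2 lower. Over all tested genes the shares were 5.07% in A2ko and 4.73% in A8ko (2.05% higher, 2.68% lower).

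Genes for receptor maturation and cleavage numbered 13 tested, of which 5 were called higher and 0 lower in C9ko, against 22.0% and 7.42% of all tested genes. ADAM17, a protease that can shed membrane proteins, rose by 0.50 on the log2 scale (limma, SE 0.06 and adjusted p 0.00123), and ADAM10, the main ligand-dependent Notch protease, by 0.36 (adjusted p 0.00992), a call lost without C9ko replicate 2. NCSTN, a gamma-secretase subunit, rose by 0.32 (adjusted p 0.00758). Its level was 62.0 to 65.1 TPM in Control, 77.3 in A2ko and 59.8 in A8ko, so A8ko was below every Control library. ADAM10 was at 32.4, 32.3 and 35.7 TPM in the Controls, 42.8 in A2ko, 27.3 in A8ko, 43.1 in C9ko replicate 1 and 43.2 in C9ko replicate 2, so A8ko was on the other side of Control. MFNG, a sister enzyme of LFNG, was at 12.5 to 17.9 TPM in Control and 32.3 in A8ko, a difference of 1.03, and at 16.3 in A2ko and 17.9 and 19.5 in C9ko.

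In the nuclear complex, RBPJ, the DNA-binding partner of all Notch receptors, fell by 0.59 in C9ko, in log2 units (limma, SE 0.14 and adjusted p 0.0185). RBPJ was at 10.7, 13.8 and 10.3 TPM in the Controls, 10.8 in A2ko, 7.23 in A8ko, 6.81 in C9ko replicate 1 and 7.86 in C9ko replicate 2. A8ko and C9ko were below Control and A2ko was within it. The call was lost without C9ko replicate 1. The coactivators MAML1 (0.27, adjusted p 0.0410) and KAT2B (0.85, adjusted p 0.00483) rose in C9ko, MAML1 with a call that held in 4 of 13 alternatives. The MAML1 call was lost without any single Control or C9ko library. KAT2B was weakly expressed, at 0.732 to 0.873 TPM over the Controls and 2.17 to 2.29 over the C9ko libraries. A2ko had 1.04 TPM and A8ko 0.755. Without the C9ko libraries KAT2B would have missed the filter of 1 TPM in at least 2 libraries. The group with the higher level thus brought it into the test. With no filter on low values KAT2B was still called (limma adjusted p 0.0182). The corepressor TLE1 rose by 0.29 (adjusted p 0.0337) and was the one of 9 tested corepressors called, against 29.5% of all tested genes. That call held in 5 of 13 alternatives and was lost without Control replicate 1, Control replicate 2, C9ko replicate 1 or C9ko replicate 2.

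Among inhibitors and turnover factors 4 were called higher and 1 lower in C9ko, of 8 tested, against 22.0% and 7.42% of all tested genes. DTX2, a Deltex ubiquitin ligase, rose by 0.64 on the log2 scale (limma, SE 0.06 and adjusted p 0.000574). Its Control level was 55.0 ± 1.78 TPM (SD, n = 3), with 83.5 and 88.5 in C9ko, 77.0 in A8ko and 43.6 in A2ko. DTX4 rose by 0.51 (adjusted p 0.00270) and ITCH, a ubiquitin ligase of Notch, by 0.40 (adjusted p 0.00863), the latter call being lost without C9ko replicate 2. NUMBL fell by 0.27 (adjusted p 0.0302), a call lost without Control replicate 2 or 3 or without C9ko replicate 1 or 2. MIB1, which drives ligand endocytosis in the sending cell, rose by 0.52 (adjusted p 0.00265). DLK2, a non-canonical ligand, fell by 0.78 (adjusted p 0.00208). Its Control level was 59.8 ± 6.80 TPM (SD, n = 3), with 32.4 and 36.4 in C9ko, 51.6 in A2ko and 38.0 in A8ko.

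The other HES and HEY genes split as well. HES2 (chromosome 1, 6412418 to 6424670) was at 51.0, 43.2 and 46.5 TPM in the Controls, 33.9 in A2ko, 10.7 in A8ko, 12.1 in C9ko replicate 1 and 13.4 in C9ko replicate 2. HES2 fell by 1.80 in C9ko, in log2 units (limma, SE 0.09 and adjusted p 3.86e-05), and the difference in A8ko was -2.03. HES4 (chromosome 1, 998962 to 1000172) was at 42.3, 37.5 and 50.03 TPM in the Controls, 45.9 in A2ko, 14.7 in A8ko, 23.2 in C9ko replicate 1 and 27.1 in C9ko replicate 2. HES4 fell by 0.76 in C9ko (limma, SE 0.13 and adjusted p 0.00561), a call lost with no filter on low values (adjusted p 0.0772), and the difference in A8ko was -1.48. For both genes A8ko and C9ko lay below Control, whereas A2ko was below it for HES2 and within it for HES4. HES7 was the one called higher in C9ko, by 0.80 (adjusted p 0.0109), a call lost without C9ko replicate 2. Its Control level was 1.74 ± 0.397 TPM (SD, n = 3), with 3.40 and 4.13 in C9ko, 3.28 in A8ko and 0.782 in A2ko. A8ko was thus above every Control library and A2ko below. HES6 had a difference of -0.29 in C9ko and was not called (limma adjusted p 0.132).

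The genes within 2 Mb of HES2 had a median difference of 0.14 in A8ko and 0.02 in C9ko, and those of HES4 0.15 and 0.07. Both genes were below all of their 27 and 88 neighbours in A8ko.

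**Figure D5:**
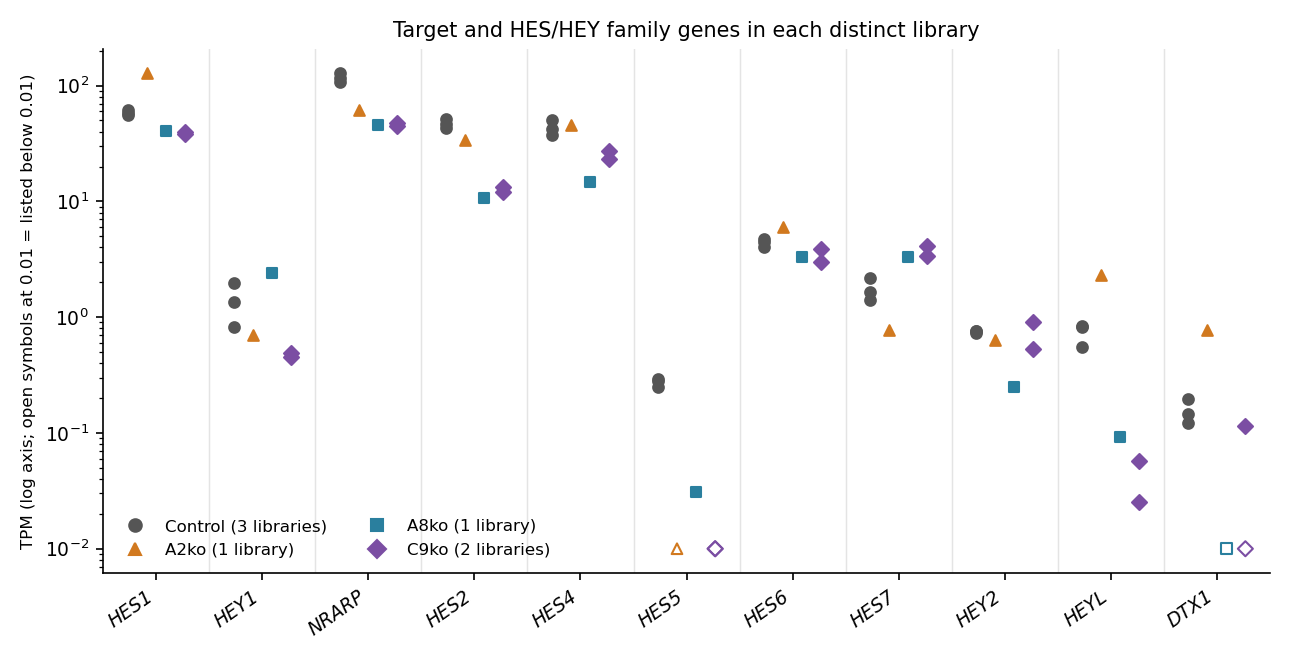
TPM on a log axis of the target members, the other HES and HEY genes and DTX1 in each distinct library; open symbols at 0.01 stand for values listed below 0.01. HES2 and HES4 are below Control in A8ko and C9ko. In A2ko HES1, HES6, HEYL and DTX1 are above Control, HES4 is within it, and NRARP, HEY1, HES2, HES5, HES7 and HEY2 are below. HEYL, DTX1, HES5 and HEY2 were too low to be tested.

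The member with the widest range of group means was NOTCH3, at 1.88 log2 units. The 3 tested genes with the most similar pattern, by Euclidean distance of the differences from Control over the 7 libraries, were ELF3, an epithelial ETS transcription factor, at a distance of 0.21, ARHGEF37 at 0.31 and VSIR at 0.32. ELF3 was at 162 to 182 TPM in the Controls, 210 in A2ko, 54.9 in A8ko, 90.3 in C9ko replicate 1 and 93.0 in C9ko replicate 2. Its differences were 0.28 in A2ko, -1.64 in A8ko and -0.91 in C9ko, beside 0.19, -1.69 and -0.9998 for NOTCH3. The likeness is a description over libraries that share their Control values.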

How the data were processed

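PolyA RNA from CAL27 cells was sequenced from dUTP libraries, per the labels' protocols. The deposited values are TPM per Ensembl gene, computed by the authors. The genome build is hg38, per the submitters' processing notes. The aligner, quantification tool, annotation release and strand setting are not given in the sources used here. Both A2ko files carry the same column header, and so do both A8ko files, and identical files were counted as 1 library. TPM keeps no depth, so no counting interval is given.

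Symbols were found for 61463 of 78894 identifiers, and positions came from GENCODE release 29 (GRCh38). Genes with at least 1 TPM in at least 2 distinct libraries were analysed as log2(TPM + 1) with a pseudocount of 1, and such differences understate changes of weakly expressed genes. limma 3.58.1 in R 4.3.3 (lmFit, eBayes with trend) compared C9ko with Control in a fit of all 4 groups, and 3 knockout group values with 3 Control libraries, with Benjamini-Hochberg adjustment over 17100 genes and calls under 0.05. A2ko and A8ko were described by values outside the Control range and at least 1 log2 unit from its mean. The fits were run on simulated data in which 200 of 17100 genes rose by 1 log2 unit, alike in every knockout. Of these, 99.5% were recovered for C9ko and 100% for all knockouts, with 4.78% and 1.48% of calls false. Spread between knockouts was not simulated, so the check does not cover it.

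The members, gene lists and tests were chosen with earlier results of these data known. All members were described. Of the other pathway genes, those called, or past 1 log2 unit in A2ko or A8ko, were named, at most 3 per role and direction by size, and the 3 genes nearest in pattern to the member of widest range. Alternatives varied the pseudocount, filter, scaling, libraries, replicate block and model.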

Additional observations from a re-analysis of the deposited data

Results flagged for a closer look

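Knockouts lay on opposite sides of all 3 Control libraries for 3 of the members, with no test of the difference, as 1 library stands for A2ko and 1 for A8ko. The share of all tested genes with such an arrangement was not counted, so the 3 cannot be called unusual. A2ko, A8ko and C9ko lay beyond every Control library for 76.7%, 73.3% and 57.5% of tested genes. For HES1, A2ko was above and A8ko and C9ko were below every Control library, a span of 1.69 log2 units from lowest to highest knockout. NOTCH3 had the same arrangement, spanning 1.88 log2 units, but after median-of-ratios scaling A2ko was within the Control range. For HEY1, A8ko was above and A2ko and C9ko were below every Control library, a span of 1.22 log2 units, at levels of 0.454 to 2.43 TPM.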

How the results depend on the processing

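NRARP, NOTCH3, NOTCH1, HES1 and NOTCH2 kept their direction and call in C9ko in all 13 alternatives. The alternative with all 9 files as separate libraries counts identical files as replicates and so understates the spread. A call that held in it is no support, here and in the counts out of 13 given above. The count of genes called in C9ko was 8166 with all 9 files as separate libraries, and 3301 to 4174 when 1 library was left out. Leaving out 1 library gave 10 to 16 of the other pathway genes and 5 to 7 members. The titles number the libraries, but nothing says that a number marks a shared culture or day, and Control and C9ko share 2 numbers. With a replicate block on Control and C9ko libraries, 3248 genes and 11 other pathway genes were called, and the calls of JAG1, LFNG, NCSTN (adjusted p 0.0821), MAML1, TLE1, NUMBL and ITCH were lost. With no filter on low values those of JAG1, LFNG, RBPJ, MAML1, TLE1, ITCH, HES4 and HES7 were lost. The R1 minus R2 differences of Control and C9ko correlated across genes at r = -0.04. By scaling with the median of ratios, 54.6% of calls in C9ko were higher, against 74.8%, and 30.0% against 49.4% for all knockouts. With a mean of at least 5 TPM the latter share was 61.6%.

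For all knockouts together, 176 genes were called. The count was 23 with no filter on low values, 5 to 11 without 1 Control library, 1993 without A2ko, 67 without C9ko, and 4361 with the knockout average in the fit of all 4 groups. Members called were 0 with no filter, 0 to 0 without 1 Control library, 0 without C9ko, 4 without A2ko, and 6 in the fit of all 4 groups. Other pathway genes called were 8 without A2ko and 19 in that fit. HES1 turned from 0.01 to -0.54 without A2ko.

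The count in A2ko was 867, 1813 with a pseudocount of 0.1 and 380 with a mean of at least 5 TPM, and in A8ko it was 809, 1689 and 412. With a window of 5 Mb in place of 2 Mb, 1 member in place of 0 had neighbours at least 0.25 log2 units from all genes in C9ko. TGGGAA was in 2 member promoters, GTGGGAA in 1. Where the cause of a change is not plain from the libraries or genes left out, the cause was not tested. Depth is unknown, so the precision of HEY1 and other genes near 1 TPM cannot be given.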

Other observations

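Some pathway genes were too low to be tested, and the following were named after their values were seen. Control libraries held HEYL, a HEY family gene, at 0.556, 0.821 and 0.845 TPM, with 2.31 in A2ko, 0.0920 in A8ko, 0.0567 in C9ko replicate 1 and 0.0252 in C9ko replicate 2, which puts A2ko above and A8ko and C9ko below Control, as for HES1. For DTX1, a Deltex gene known as a Notch target, Control ranged from 0.122 to 0.197 TPM and A2ko was at 0.769, while C9ko replicate 2 was at 0.115 and A8ko and C9ko replicate 1 had it listed at 0. HES5 ranged from 0.247 to 0.293 TPM in Control, was at 0.0310 in A8ko, and was listed at 0 in the remaining knockout libraries. NOTCH4 and DLL4, the receptor and ligand best known from endothelium, were at most 0.0463 and 0.109 TPM in any library.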
